A study of Mus musculus with 3 samples.

Results

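The genes described here are the 39 genes of the mouse Hoxa, Hoxb, Hoxc and Hoxd clusters together with Pitx1, Tbx4, Tbx5, Meis1, Meis2 and Shox2. They were taken by symbol from a table of 56833 genes, which gave 45 genes, and the rule itself uses no measured value. RNA came from cells of the ankle synovium, the lining tissue of the joint, of mice with the genotype Efhd1CreER; Ai9. In these animals a Cre recombinase under the control of Efhd1 switches on the red fluorescent protein tdTomato of the Ai9 reporter allele, and cells positive for tdTomato were sorted and are labelled telocytes, an interstitial cell type. The sorted cells were grown for 24 h on collagen-coated plates with a stiffness of 0.2, 8 or 64 kPa, named soft, intermediate and stiff below, with 1 library per level. Where 3 values of a gene or list follow each other, they stand in that order. All 3 groups thus share genotype, tissue, sort and coating and differ in the stiffness of the plate. Age, sex, tamoxifen dosing (the CreER form of Cre needs it) and the number of animals behind each library are not given in the sources used here, and the sort keeps whatever cells carried out recombination, whether or not they still express Efhd1.

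Hox genes encode homeodomain transcription factors that give cells of the embryo a position along the body axis. The genes of a cluster lie in the order of their paralog groups, from group 1 at the 3′ end to group 13 at the 5′ end, and the groups at the 5′ end pattern the limb, with group 13 acting in the hand and foot. Pitx1 and Tbx4 are transcription factors of the hindlimb and Tbx5 is their forelimb counterpart. Meis1 and Meis2 are homeodomain cofactors of the TALE class that mark the upper limb segment, and Shox2 is needed for the bones of that segment. Fibroblasts of adult connective tissue are known to keep Hox expression that reflects the place they came from.

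The libraries held 25487064 (soft), 28081600 (intermediate) and 26474862 (stiff) reads. No value has a replicate, so no difference was tested and no p-value is given. Intervals are exact and cover 95% of counting error, not the variation between cultures, and amplified reads are not independent molecules. Markers of synovial fibroblasts and telocytes summed to 162192, 197127 and 246862 normalized counts, led by genes other than Efhd1, which gave 10.3, 4.71 and 3.08 (Dpp4, another marker of the list, had 1, 0 and 2 reads). The largest part of that sum was Col1a1 at 78648, 110715 and 151834, while Dcn, Lum and Pdgfra were lower in the stiff than in the soft library, and the list had a median log2 ratio of 0.31 for stiff against soft and 0.03 for intermediate against soft. The summed macrophage markers were 29454, 36528 and 64789, with medians of 1.25 and 0.43, and all 12 macrophage markers were higher in the stiff than in the soft library by at least 0.5 on the log2 scale. No read fell on the red cell markers, and the endothelial markers summed to between 57.4 and 86.1 normalized counts. Mural markers summed to 8491, 9135 and 8494, and chondrocyte and osteoblast markers to 2901, 3604 and 2905. Of the latter, Col2a1 gave 209, 330 and 576 and Sp7 gave 1407, 1501 and 750. Skeletal muscle markers summed to 174, 310 and 635, of which Acta1 gave 168, 297 and 622. Keratinocyte and Schwann cell markers each summed to between 62.6 and 191. In bulk RNA, fewer cells of a type and less RNA per cell cannot be told apart.

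The group 13 genes carried the largest share of the Hox level, and their homeoboxes, the stretch of coding sequence for the DNA-binding domain, show how alike the counted transcripts are. Each homeobox is 180 bases long and lies in exon 2 of a 2-exon gene, and is printed 5′ to 3′ on the coding strand of GRCm39. Hoxa13 has it at chr6:52235908-52236087 on the minus strand, Hoxb13 at chr11:96086846-96087025, Hoxc13 at chr15:102835645-102835824 and Hoxd13 at chr2:74500274-74500453, each on the plus strand. Capitals mark 18 bases that encode the most conserved part of the recognition helix.
Hoxa13: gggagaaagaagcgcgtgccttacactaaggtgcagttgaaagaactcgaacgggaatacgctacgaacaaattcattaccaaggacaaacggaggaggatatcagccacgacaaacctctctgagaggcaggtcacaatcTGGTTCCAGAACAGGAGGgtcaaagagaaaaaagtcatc
Hoxb13: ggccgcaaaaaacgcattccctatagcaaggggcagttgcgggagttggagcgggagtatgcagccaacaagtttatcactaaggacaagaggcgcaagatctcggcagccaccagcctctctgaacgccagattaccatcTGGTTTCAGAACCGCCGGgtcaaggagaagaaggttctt
Hoxc13: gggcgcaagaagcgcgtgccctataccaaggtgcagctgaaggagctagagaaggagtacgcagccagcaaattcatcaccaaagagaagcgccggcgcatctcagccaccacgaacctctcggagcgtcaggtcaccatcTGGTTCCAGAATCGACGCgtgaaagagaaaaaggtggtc
Hoxd13: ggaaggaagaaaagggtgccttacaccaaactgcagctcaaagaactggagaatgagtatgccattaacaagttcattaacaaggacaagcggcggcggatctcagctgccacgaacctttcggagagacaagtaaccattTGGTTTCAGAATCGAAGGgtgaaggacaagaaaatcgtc
Nucleotide identity between these homeoboxes ran from 67.2% (Hoxb13 and Hoxd13) to 77.2% (Hoxa13 and Hoxc13). Over all pairs of Hox genes of 1 paralog group in different clusters, the median identity was 80.6%. The longest exact stretch shared by transcripts of the 45 genes at different loci was 52 bases, between Hoxa6 and Hoxb4. Each of these had at most 9 reads in a library. Each Hox cluster counted as 1 locus here, so pairs within a cluster were not searched. Homeobox identity within a cluster reached 88.9%.

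Of the 45 genes, 27 had a mean over the libraries of 10 normalized counts or more and are called detected, and 19 reached a mean of 50, the minimum used for counts of differences. Just outside the limit of 10 lay Hoxc4 with a mean of 7.64 and Hoxa6 with 5.70, and just inside lay Hoxc9 with 11.9 and Hoxa3 with 15.8. Meis1 (41.6) lay just under the limit of 50, and Hoxd9 (87.4) and Hoxc10 (87.9) were among the lowest above it. Hoxd3, Hoxd1, Hoxb13, Hoxb6 and Hoxb1 had no read in any library, which allows up to 3.08, 2.83 and 3.08 normalized counts. The other 13 genes below the detection limit had between 0 and 9 reads in each library. Reads of the 39 Hox genes made up 0.0287%, 0.0269% and 0.0255% of all reads.

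The Hox genes that these cells expressed were mostly those of the 5′ ends of the HoxA, HoxC and HoxD clusters. To compare genes, levels are given as normalized counts per kilobase of exon. The 16 genes of groups 9 to 13 held 86.7%, 86.6% and 86.5% of the summed Hox level per kilobase, against 13.3%, 13.4% and 13.5% for the 23 genes of groups 1 to 8. Group 13 alone held 42.5%, 43.6% and 42.6%, group 10 held 20.2%, 19.2% and 19.0%, and group 11 held 17.2%, 17.0% and 17.7%. The plot of shares by paralog group shows that the order of the leading groups was the same in each library.

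**Figure D1:**
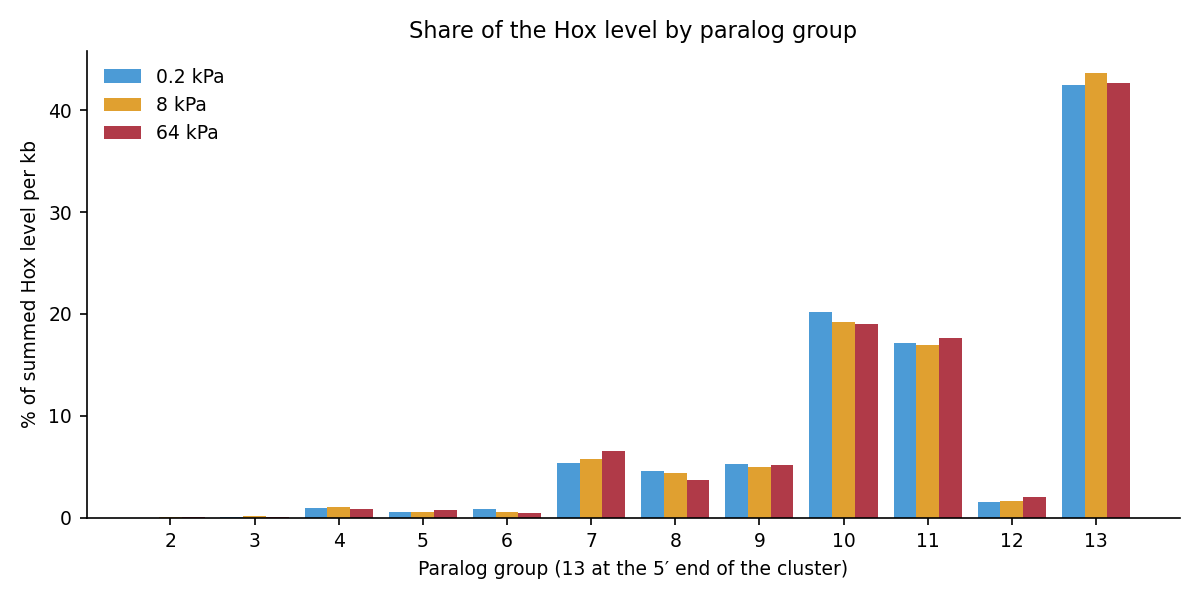
Share of the summed Hox level per kilobase (vertical axis, percent) held by paralog groups 2 to 13 (horizontal axis), with 1 bar per library. Group 13 stands highest in each library at 42.5%, 43.6% and 42.6%, and each of groups 2 to 6, the lowest groups drawn, stays at or below 1.03%.

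Hoxd13, which patterns the digits and ankle bones, had the highest level of all 45 genes, 804, 793 and 725 normalized counts per kilobase. Its level was above that of Hoxa10, next in order by the mean, in each library without overlap of the counting intervals. Hoxa10, a gene of the thigh and shank segments, had 436, 400 and 372 normalized counts per kilobase, and Hoxa11 had 400, 374 and 382. The intervals of Hoxa10 and Hoxa11 overlapped in all 3 libraries, so their order was not resolved. Hoxa13, the partner of Hoxd13 in the foot, followed at 300, 283 and 276. It was separated from both Hoxa11 above it and Tbx4 below it in every library.

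Below these 4, the mean levels per kilobase over the libraries were 161 for Tbx4, 156 for Hoxa7, 111 for Hoxd8 and 82.6 for Hoxa9. Tbx4 and Hoxa7 had overlapping intervals in all 3 libraries, Hoxa7 and Hoxd8 overlapped in 1, and Hoxd8 lay above Hoxa9 in each without overlap. Hoxc13 (80.4), Pitx1 (76.0), Shox2 (73.5), Hoxd10 (73.0) and Hoxc11 (56.9) followed, and from Hoxa9 on, neighbours in this order overlapped in 2 or 3 of the libraries. From Hoxc11 through Hoxc10 and Hoxd9 to Hoxd12 neighbours overlapped in all 3 libraries. Lower down, neighbours overlapped in at least 2 of the 3, from Hoxa4 through Hoxd11, Hoxa5, Meis2, Hoxc12, Hoxb9, Hoxc6, Hoxc9 and Meis1 to Hoxa3 at 2.29. Across the 27 detected genes, log2 levels per kilobase had a Pearson correlation of 0.985 for the stiff and soft libraries, 0.995 for soft and intermediate, and 0.986 for intermediate and stiff. This correlation is across genes that share 1 processing and 1 set of lengths, so it describes the order and is no test.

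**Figure D2:**
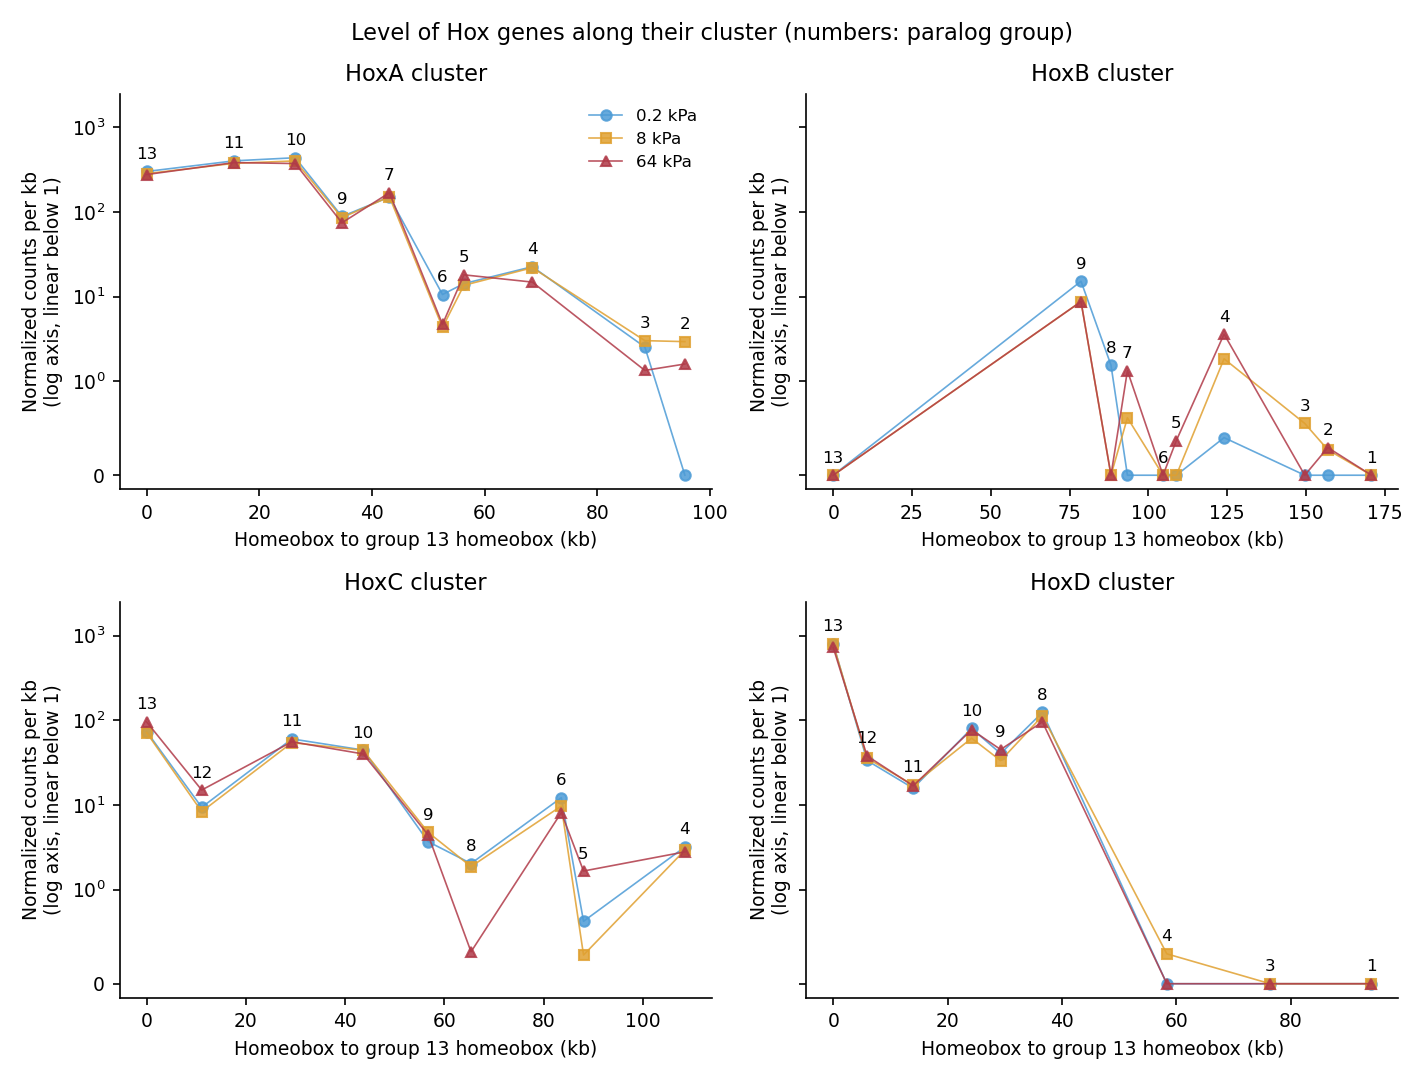
Level of the Hox genes reported singly (vertical axis, normalized counts per kilobase, log axis that is linear below 1) against the distance of its homeobox from that of group 13 (horizontal axis, kb), by cluster, with 1 colour per library. Lines join the genes of a cluster, numbers give the paralog group, and the lines of the libraries run close together from Hoxd13 at 804, 793 and 725 down to genes with no read.

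Within the HoxA cluster (chromosome 6), 9 of 11 genes were detected. Levels per kilobase were high from Hoxa13 to Hoxa10, over 26.4 kb, and Hoxa9 and Hoxa7 followed at means of 82.6 and 156. Beyond Hoxa7 the level dropped to a mean of 6.52 at Hoxa6, 15.3 at Hoxa5, 19.7 at Hoxa4, 2.29 at Hoxa3 and 1.51 at Hoxa2.

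The HoxD cluster (chromosome 2, 74498654 to 74595486 in GRCm39) was split sharply. The 6 genes from Hoxd13 to Hoxd8 were detected, while Hoxd4, 58.4 kb from Hoxd13, had 1 read in the intermediate library and none elsewhere, and Hoxd3 and Hoxd1 had none. The last detected gene, Hoxd8, lay 36.6 kb from Hoxd13 and had a mean level of 111 normalized counts per kilobase. Levels did not decline evenly from Hoxd13 to Hoxd8. The means were 774 for Hoxd13, 35.8 for Hoxd12, 16.6 for Hoxd11, 73.0 for Hoxd10, 39.7 for Hoxd9 and 111 for Hoxd8.

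In the HoxC cluster (chromosome 15, 102829538 to 102945278), 6 of 9 genes were detected. Hoxc13, known for its part in hair and nails, led with a mean of 80.4 normalized counts per kilobase. Hoxc12 (10.9), Hoxc11 (56.9) and Hoxc10 (43.0) came next along the cluster, Hoxc9 had 4.29, Hoxc6 had 12.2, 9.72 and 8.13, and Hoxc8, Hoxc5 and Hoxc4 were below the limit of detection. In the HoxB cluster (chromosome 11, 96085106 to 96259082), Hoxb9 alone of 10 genes was detected. It gave 41.0, 23.6 and 23.6 normalized counts. Hoxb13, the group 13 gene of this cluster, had no read. HoxA held 52.2%, 51.9% and 51.9% of the summed Hox level per kilobase, HoxD 39.6%, 40.1% and 38.8%, HoxC 7.57%, 7.55% and 8.71%, and HoxB 0.616%, 0.456% and 0.556%. The rank correlation (Spearman) of paralog number with level was 0.78, 0.78 and 0.79 over the 11 HoxA genes, 0.75, 0.75 and 0.80 over the 9 HoxC genes and 0.68, 0.74 and 0.68 over the 9 HoxD genes. Over the 10 HoxB genes, of which 7 had any read, it was 0.41, 0.03 and 0.14. These values are a description across genes of 1 locus.

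The limb identity genes were those of the hindlimb, with Tbx4 far above Tbx5. Tbx4 gave 717, 725 and 708 normalized counts, while its forelimb counterpart Tbx5 gave 7, 0 and 6 reads. The Tbx4 values differed by less than counting error, with a log2 ratio of stiff to soft of -0.02 (counting interval -0.17 to 0.14). Shox2 gave 267, 271 and 233 normalized counts, lowest in the stiff library, at a log2 ratio of stiff to soft of -0.19 (-0.46 to 0.07). Of the cofactors, Meis2 gave 174, 179 and 176 and Meis1 gave 43.1, 38.7 and 43.1 normalized counts. Their log2 ratios of stiff to soft were 0.02 (-0.30 to 0.33) and 0.00 (-0.65 to 0.65).

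Pitx1, the selector of hindlimb identity (chromosome 13, 55972864 to 55984005, minus strand, 3 exons), differed most with stiffness among the 19 genes with a mean of at least 50. It gave 162, 183 and 260 normalized counts. The stiff library was high and the soft and intermediate libraries lay close together. The log2 ratio was 0.68 (0.39 to 0.98) for stiff to soft, 0.51 (0.23 to 0.79) for stiff to intermediate and 0.17 (-0.14 to 0.49) for intermediate to soft. The ratio of Pitx1 to Tbx4 per kilobase was 0.378, 0.422 and 0.615. After a trend of the ratios with gene length and GC content was subtracted, the Pitx1 log2 ratios were 0.52 for stiff to soft and 0.43 for stiff to intermediate. Pitx1 shares 10.3% of its exon bases with other annotated genes, of which Gm28760 had no read and Gm47071 had 6, 9 and 4 reads. The summed macrophage markers, like Pitx1, were highest in the stiff library (29454, 36528 and 64789 normalized counts), and their part in the Pitx1 ratio was not tested. Macroh2a1, 237 kb from Pitx1, had a log2 ratio of stiff to soft of 0.06 (-0.02 to 0.14).

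**Figure D3:**
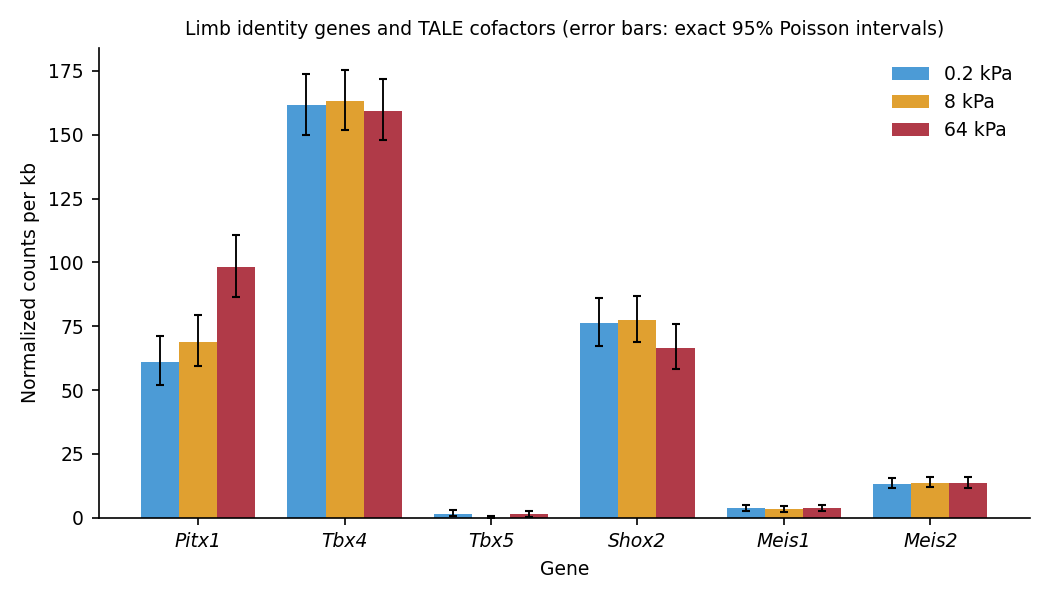
Level of Pitx1, Tbx4, Tbx5, Shox2, Meis1 and Meis2 (vertical axis, normalized counts per kilobase), with 1 bar per library and exact 95% Poisson intervals of the counts as error bars. Pitx1 stands at 61.0, 68.9 and 98.1, Tbx4 stays between 159 and 163, and Tbx5 is near 0.

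Along the 3 stiffness levels the differences of the Hox and limb genes as a set were close in median size to those of all genes. For stiff against soft, 1 of the 19 genes with a mean of at least 50 had a log2 ratio of at least 0.5 in size, and this was Pitx1, where 15.6% of 11873 genes did so, 11.8% higher and 3.77% lower in the stiff library. For intermediate against soft the count was 0, where 4.6% of genes passed (3.94% higher, 0.657% lower). For stiff against intermediate it was 1, again Pitx1, where 8.84% passed (5.42% higher, 3.42% lower). That call, at 0.51, was lost with a pseudocount of 10, with scaling by total reads or by the upper quartile, and with the trend subtracted, at 0.43. At a log2 ratio of 1 the count was 0 in each comparison, where 3.6% of all genes passed for stiff against soft, 0.168% for intermediate against soft and 1.25% for the upper step. These comparisons share libraries, so their counts are not separate pieces of evidence. The median log2 ratio of the 27 detected genes was -0.05 for stiff against soft, -0.04 for intermediate against soft and -0.03 for stiff against intermediate, beside 0.00, 0.01 and 0.01 for the 14291 genes detected in all. The median size of the log2 ratio was 0.18, 0.10 and 0.15 for the detected genes, beside 0.21, 0.12 and 0.17 for all.

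**Figure D4:**
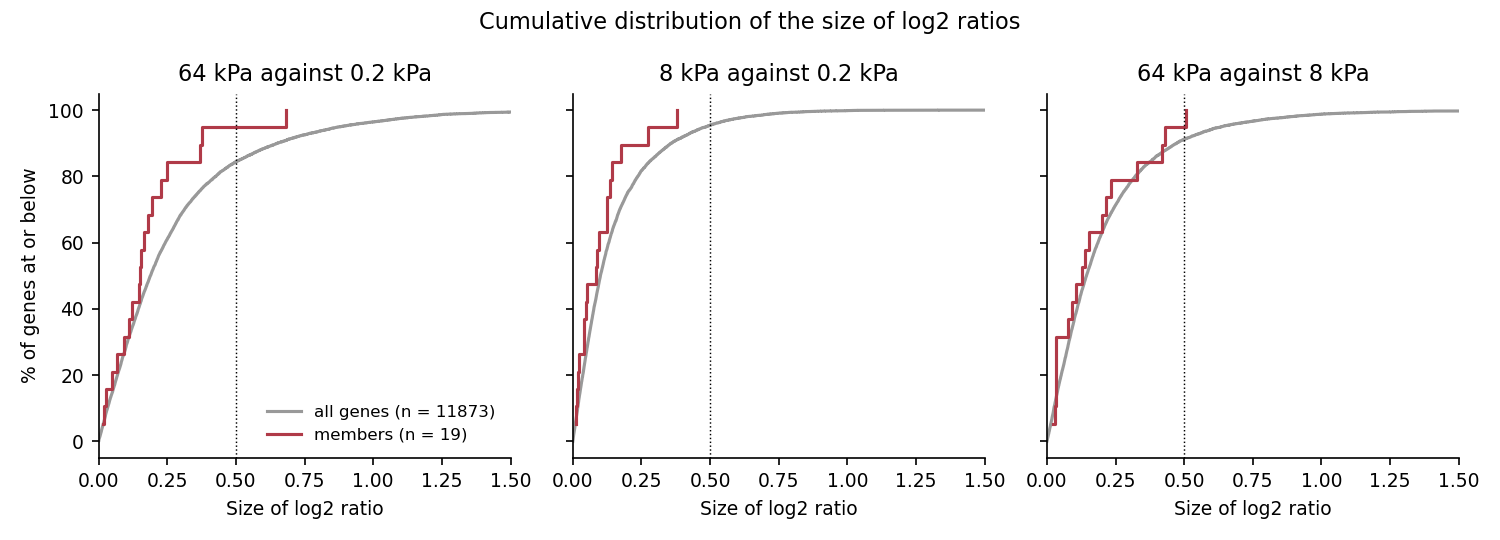
Cumulative share of genes (vertical axis, percent) at or below a given size of log2 ratio (horizontal axis) for the 19 genes of the set with a mean of at least 50 and for all 11873 such genes, in each comparison. The dotted line marks 0.5, and Pitx1 is the gene of the set past it in stiff against soft and, at 0.51, barely so in stiff against intermediate.

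Several abundant genes differed by less than that limit but by more than counting error. The counting interval of the log2 ratio of stiff to soft lay outside 0 for 6 of the 19 genes, 2 higher and 4 lower in the stiff library, where it did so for 57.1% of all genes, 31.3% higher and 25.9% lower. For intermediate against soft it did so for 2 genes, Hoxa10 and Hoxd10, both lower in the intermediate library, where 35.3% of all genes did (21.8% higher, 13.5% lower). For stiff against intermediate the count was 5, with Pitx1 and Hoxc13 higher and Hoxd13, Hoxd8 and Hoxa9 lower, where 48.3% of all genes did (26.3% higher, 22% lower). From soft to intermediate and on to stiff, 3 of the 19 genes (Pitx1, Hoxa7 and Hoxd12) were higher at both steps, as were 30.2% of all genes, and 6 (Hoxd13, Hoxd8, Hoxa9, Hoxa10, Hoxa13 and Hoxc10) were lower at both, as were 25.6%.

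Of the 4 genes lower in the stiff library, Hoxd8 differed most. It gave 365, 332 and 282 normalized counts, and its log2 ratio of stiff to soft was -0.37 (-0.60 to -0.14). Hoxa9 gave 492, 476 and 414, a log2 ratio of -0.25 (-0.44 to -0.05). Both genes were highest in the soft and lowest in the stiff library. Hoxa10 gave 1439, 1321 and 1229, a log2 ratio of -0.23 (-0.34 to -0.12). Hoxd13 gave 1996, 1969 and 1801, a log2 ratio of -0.15 (-0.24 to -0.05). The Hoxd13 ratio was -0.04 after the length and GC trend was subtracted, the only one of 81 ratios of detected genes that an alternative moved out of its counting interval.

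Hoxa13 and Hoxa11 differed between the stiff and soft libraries by less than counting error. Hoxa13 gave 751, 708 and 691 normalized counts, a log2 ratio of stiff to soft of -0.12 (-0.27 to 0.03). Hoxa11 gave 927, 866 and 884, a ratio of -0.07 (-0.20 to 0.07). Hoxa11 shares 43.6% of its exon bases with the antisense gene Hoxa11os, and the strand setting of the counting is not given in the sources used here, so reads of the pair cannot be told apart with certainty. Hoxa11os gave 280, 251 and 206 normalized counts, lower in the stiff than in the soft library at a log2 ratio of -0.44 (-0.71 to -0.17). Hoxa7 gave 432, 435 and 484, highest in the stiff library, at a ratio of 0.17 (-0.03 to 0.36).

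**Figure D5:**
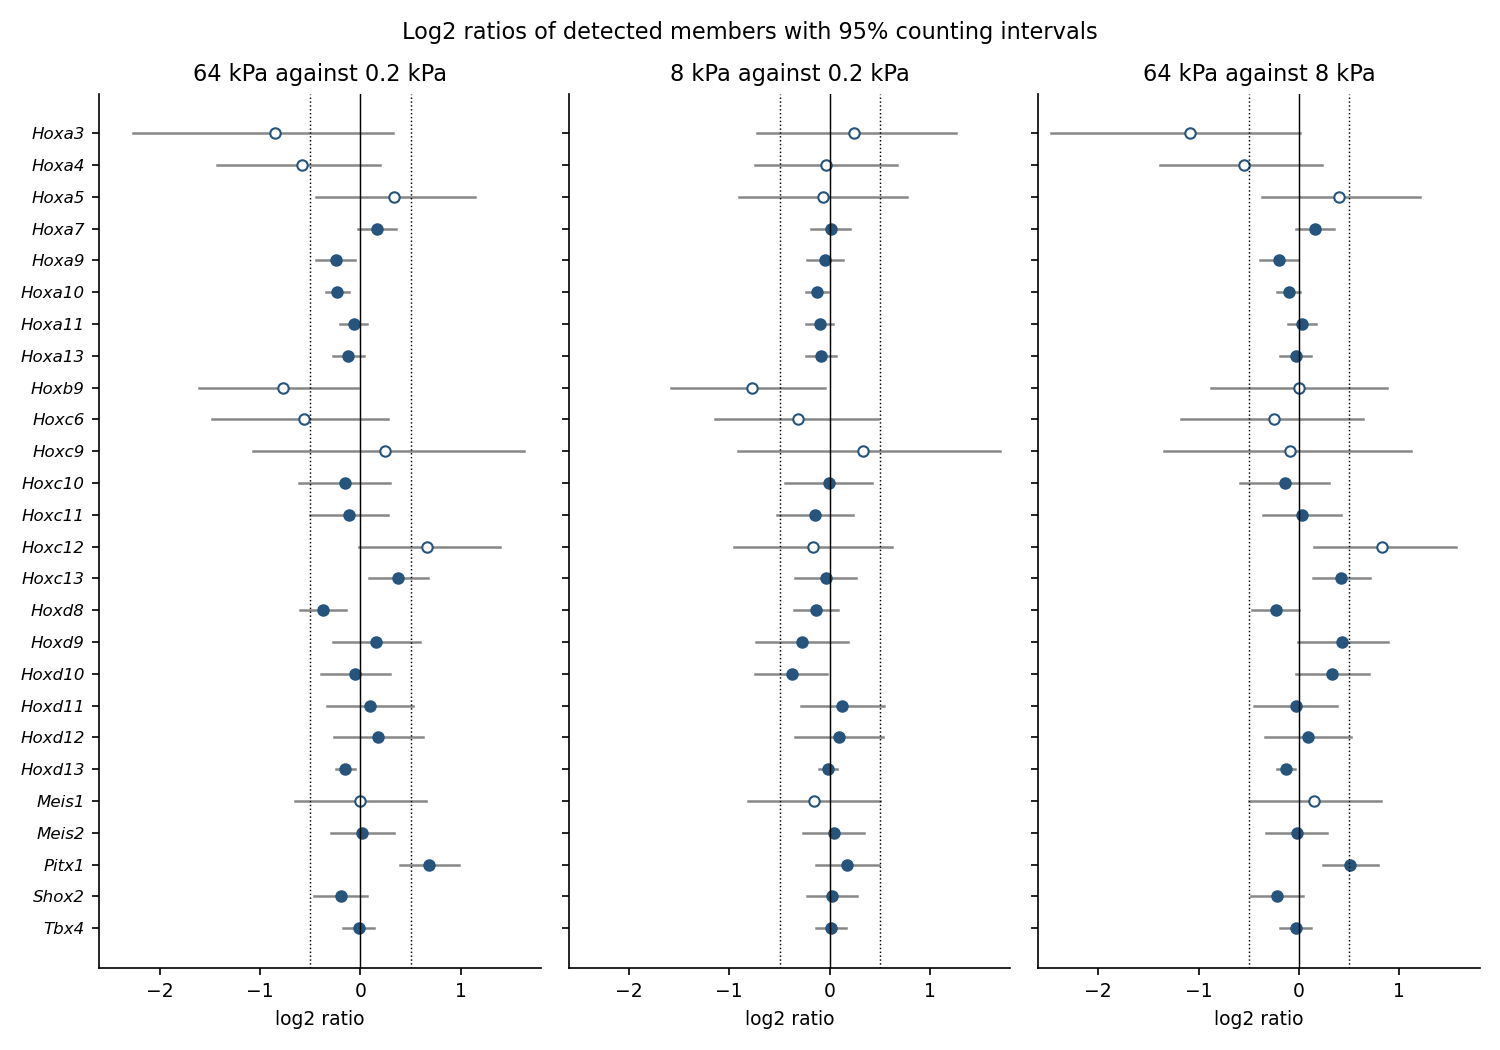
Log2 ratio (horizontal axis) of the detected genes reported singly (vertical axis) for the 3 comparisons, with exact 95% counting intervals as lines; filled points have a mean of 50 or more and dotted lines mark 0.5 in either direction. Pitx1 lies right of the dotted line for stiff against soft at 0.68 and for stiff against intermediate at 0.51.

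Among the 19 genes with a mean of 50 or more, Hoxc13 was the other gene, besides Pitx1, whose interval lay above 0 for stiff against soft. It gave 181, 176 and 236 normalized counts. The log2 ratio was 0.38 (0.09 to 0.67) for stiff to soft and 0.42 (0.14 to 0.71) for stiff to intermediate. Its neighbour Hoxc12, 11.1 kb away and below the mean of 50, gave 30.8, 27.3 and 49.2. The Hoxc12 log2 ratio was 0.66 (-0.01 to 1.39) for stiff to soft and 0.83 (0.15 to 1.57) for stiff to intermediate. Summed, Hoxc12 and Hoxc13 had a log2 ratio of stiff to soft of 0.43 (0.16 to 0.69), while the 7 genes from Hoxc4 to Hoxc11 together had -0.17 (-0.43 to 0.09). This pair was singled out after its values were seen. Within group 13, Hoxc13 held 6.26%, 6.24% and 8.74% of the level per kilobase, Hoxd13 held 68.3%, 69.1% and 66.1%, and Hoxa13 held 25.5%, 24.6% and 25.1%.

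Pitx1, Hoxc13 and Hoxc12 were the 3 detected genes whose interval lay above 0 for stiff against intermediate. The 250 bases before the start of their canonical transcripts are shown as a description. They are read from GRCm39 on the strand of the gene, at chr13:55979239-55979488 (minus), chr15:102829288-102829537 (plus) and chr15:102844942-102845191 (plus), and hold no annotated exon. Capitals mark matches to GGAATG, the core of the site of the TEAD factors of the Hippo pathway, and to TATAAA, the TATA box, which Hoxc12 has on the opposite strand.
Pitx1: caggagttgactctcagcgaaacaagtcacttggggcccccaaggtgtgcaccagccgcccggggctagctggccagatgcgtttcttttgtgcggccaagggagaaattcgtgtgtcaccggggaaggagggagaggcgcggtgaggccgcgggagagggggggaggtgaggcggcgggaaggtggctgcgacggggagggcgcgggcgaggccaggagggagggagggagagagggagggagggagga
Hoxc13: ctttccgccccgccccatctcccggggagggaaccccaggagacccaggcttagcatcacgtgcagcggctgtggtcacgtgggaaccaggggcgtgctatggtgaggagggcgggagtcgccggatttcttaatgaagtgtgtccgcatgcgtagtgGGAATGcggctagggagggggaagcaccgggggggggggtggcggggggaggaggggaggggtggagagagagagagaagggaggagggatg
Hoxc12: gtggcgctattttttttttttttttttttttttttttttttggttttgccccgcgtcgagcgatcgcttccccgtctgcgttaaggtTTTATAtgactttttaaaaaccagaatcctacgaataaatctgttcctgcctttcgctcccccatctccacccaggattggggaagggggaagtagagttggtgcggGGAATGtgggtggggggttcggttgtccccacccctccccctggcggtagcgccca
GGAATG, searched on both strands, occurred in the window of 8 of the 45 genes, 6 of them detected, and in 12.1% of 21770 windows of the same length before protein-coding genes. Besides Hoxc12 and Hoxc13, the detected genes with GGAATG were Hoxa9, Hoxb9, Hoxc11 and Hoxd11. Their log2 ratios of stiff to intermediate were -0.20, 0.00, 0.03 and -0.03. Those of stiff to soft were -0.25, -0.77, -0.11 and 0.09. A link between the site and any ratio was not tested. TATAAA occurred in the window of 7 of the 45 and in 11.9% of all windows. These are 2 of 8 motifs searched. Of the others, the MEIS site TGACAG occurred in 4 of the 45 windows (14.6% of all), the AP-1 site TGANTCA in 2 (6.17%), the T-box site GGTGTGA in 1 (3.23%), the posterior HOX site CAATAAA in 1 (3.99%), the CArG box in 1 (1.40%) and the PITX site TAATCC in 0 (7.0%). The Pitx1 window held none of the 8. GC content was 68.4% for Pitx1, 66.8% for Hoxc13 and 50% for Hoxc12, beside a median of 53.2% over all windows. A match is a description of letters and no measurement of binding, and the motifs were chosen after the values were seen.

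In the middle of the HoxD cluster a pair of neighbours had their lowest value in the intermediate library. Hoxd10 gave 149, 114 and 144 normalized counts. Its log2 ratio of intermediate to soft was -0.38 (-0.74 to -0.02), that of stiff to intermediate was 0.33 (-0.03 to 0.69), and that of stiff to soft was -0.05 (-0.40 to 0.30). The neighbour Hoxd9 gave 89.2, 73.5 and 99.5, with ratios of -0.28 (-0.74 to 0.18) for intermediate to soft and 0.43 (-0.01 to 0.88) for stiff to intermediate. Of the 4 ratios of these genes to or from the intermediate library, 1 had an interval that left out 0. Summed, the pair had a log2 ratio of -0.34 (-0.62 to -0.06) for intermediate to soft and 0.37 (0.10 to 0.65) for stiff to intermediate, a pattern singled out after its values were seen. Hoxd12 gave 85.1, 90.5 and 96.4 and Hoxd11 gave 93.3, 102 and 99.5, each within counting error between all libraries.

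Summed over the cluster, HoxA reads had a log2 ratio of stiff to soft of -0.13 (-0.19 to -0.06). HoxD reads had -0.14 (-0.22 to -0.06), while HoxC had 0.12 (-0.06 to 0.31). The HoxD sum was mostly Hoxd13, which gave 1996 of its 2777 normalized counts in the soft library. Taken gene by gene, the 6 detected HoxD genes had a median ratio of 0.02, with 3 ratios above 0 and 3 below. The 9 detected HoxA genes had a median of -0.12, with 2 ratios above 0 and 7 below. All Hox genes summed had a log2 ratio of stiff to soft of -0.12 (-0.16 to -0.07). The macrophage marker sum was 18.2%, 18.5% and 26.2% of the synovial fibroblast and telocyte marker sum, and its part in these ratios was not tested. Other scalings of the libraries move every ratio of stiff to soft by between -0.004 and -0.058. Of the genes that flank the clusters, Skap2 beside HoxA had a log2 ratio of stiff to soft of 0.00 (-0.11 to 0.10) and Mtx2 beside HoxD had -0.09 (-0.20 to 0.01). On the sides of HoxC, Calcoco1 had 0.09 (-0.05 to 0.22) and Smug1 had -0.13 (-0.33 to 0.07), and Smug1 was lower in the intermediate than in the soft library at -0.32 (-0.52 to -0.12). Evx2, a homeobox gene 8.75 kb from the HoxD cluster, gave 50.2, 53.7 and 58.5 normalized counts. These flanking genes were chosen by position alone after the values of the clusters were known.

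Among the less abundant genes, counting error covered most differences. Hoxb9 had a log2 ratio of -0.77 for both stiff to soft (-1.61 to -0.02) and intermediate to soft (-1.58 to -0.04), from 40, 25 and 23 reads. Hoxa3 (17, 22 and 9 reads), Hoxa4 (35, 37 and 23) and Hoxc6 (30, 26 and 20) were lowest in the stiff library, with intervals for stiff against soft that held 0. Hoxa5 (26, 27 and 33 reads) and Hoxc9 (10, 14 and 12) were within counting error in each comparison. Hoxb4, a gene of the anterior HoxB cluster below the limit of detection, had 1, 5 and 9 reads, a log2 ratio of stiff to soft of 2.34 (0.32 to 8.62). Hoxc11 gave 122, 110 and 113 normalized counts and Hoxc10 gave 91.2, 90.5 and 82.0, with intervals that held 0 in every comparison.

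Regulators of the Hox clusters were read from lists of known genes, and the counts below stand beside the 11.8% of all genes that were higher and the 3.77% that were lower in the stiff than in the soft library by the same rule. Of 14 Trithorax-group genes and H3K27 demethylases, which keep Hox genes active, 6 had a log2 ratio of stiff to soft of at least 0.5 and none the opposite, with a median of 0.17. Kdm6b, which removes the repressive H3K27 methyl mark, gave 212, 427 and 552 normalized counts, a log2 ratio of stiff to soft of 1.37 (1.14 to 1.62). Kmt2b and Kmt2a, methyltransferases for H3K4, had ratios of 1.23 (0.98 to 1.49) and 1.19 (0.86 to 1.54), and the acetyltransferase Kat6a had 0.69 (0.50 to 0.89). Once the trend with length and GC content was taken out, the ratios were 0.94 for Kdm6b, 0.68 for Kmt2b, 0.82 for Kmt2a and 0.59 for Kat6a. The other two of the 6, Dot1l (0.69) and Ash1l (0.57), then lay below the limit at 0.19 and 0.46, so that 4 of 14 genes stayed past it, where 8.57% of all genes were higher and 4.21% lower once the trend was taken out. The 12 macrophage markers were higher in the stiff library as well, and their part in these ratios was not tested. The median of the list, 0.17 or 0.12 with the trend taken out, stood beside -0.05 or -0.04 for the detected Hox and limb genes. A link between them was not tested. Of 23 Polycomb repressors, 2 were higher in the stiff library, Jarid2 at 0.72 and Phc1 at 0.60, and none lower, with a median of 0.01, a count no larger than the share over all genes gives. With the trend subtracted both fell short of 0.5, at 0.48 and 0.45, and Cbx6 passed it in the lower direction at -0.62. Of 9 insulator and cohesin genes, 2 were higher, the loader Nipbl at 0.84 and the subunit Smc1a at 0.80, and none lower, with a median of 0.19. The other cohesin subunits of the list were mixed below that limit. Smc3 had 0.22 (0.06 to 0.39), while Rad21 had -0.28 (-0.34 to -0.22), Stag1 -0.25 (-0.34 to -0.15) and Stag2 -0.32 (-0.40 to -0.25).

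Of the DNA-binding cofactors of the PBX and MEIS classes other than Meis1 and Meis2, 7 had a mean of at least 50 and none passed 0.5 in either direction. Of 17 non-coding and antisense genes of the clusters that the table holds, 3 were detected and 9 had no read, and the 3 had a median log2 ratio of -0.62 for stiff against soft. Of these, 1 reached a mean of 50 and 0 passed the limit of 0.5. All 3 had an interval below 0. Of all genes with a mean of 50 or more, 25.9% did so, a minimum that only Hoxa11os of the 3 reached. Hotairm1, in HoxA, had 59, 47 and 38 reads and a ratio of -0.62 (-1.26 to -0.02). Hoxd3os1, in HoxD, had 18, 18 and 5 reads and a ratio of -1.67 (-3.63 to -0.36), and Hoxa11os, given above, had -0.44 (-0.54 with the trend taken out). Hottip, at the 5′ end of HoxA, had 7, 7 and 3 reads and Hotair, in HoxC, had 4, 4 and 3, both below the limit of detection.

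Of the limb patterning genes, 24 reached a mean of 50, and 3 of these were higher in the stiff than in the soft library by at least 0.5 and 1 was lower, with a median of 0.00 over the detected genes of the list. Both counts are close to the share over all genes. Lmx1b, the dorsal limb selector, gave 42.0, 61.3 and 91.3 normalized counts, a log2 ratio of stiff to soft of 1.10 (0.57 to 1.69). The Hedgehog effectors Gli2 and Gli3 had 0.94 (0.37 to 1.57) and 0.52 (0.30 to 0.74). With the trend taken out these ratios were 0.77 for Lmx1b, 0.60 for Gli2 and 0.43 for Gli3, so that 2 of the 24 stayed past the limit, near the 8.57% of all genes that did so. Prrx1, a marker of limb mesenchyme, gave 28680, 27843 and 19953, a ratio of -0.52 (-0.55 to -0.50). In the retinoic acid pathway, which sets Hox boundaries in the embryo, 1 of 13 genes was higher, the receptor Rara at 0.75, and 3 were lower. Of all genes, 11.8% were higher and 3.77% lower. Rara was at 0.29 with the trend taken out, so that 0 genes were then higher, and 2 were lower. The lower ones included the carriers Crabp2 at -1.42 and Crabp1 at -0.78 (-1.38 and -0.68 with the trend taken out), and Crabp2 gave 75.9, 101 and 27.7 normalized counts.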

How the data were processed

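Stranded poly(A) RNA libraries (TruSeq, per the labels' protocols) of sorted ankle synovium cells were sequenced by the authors, 1 per stiffness level. Per the submitters' processing notes, the tools were bcl2fastq 2.20.0, STAR 2.7.9a, featureCounts of Subread 2.0.1 and DESeq2 1.34.0, with GRCm39; the annotation and strand setting are not given in the sources used here. The signal values that the authors deposited are counts per gene, each column scaled by its DESeq2 size factor. The 3 deposited files held the same table, and no column was left unused (0).

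In each column, 100% of values were whole multiples, within 0.001, of the smallest positive value, so reads were recovered by division (1 read is worth 1.03, 0.943 and 1.03 normalized counts at 0.2, 8 and 64 kPa). No count model was run on them, because it needs replicates. Log2 ratios used a pseudocount of 1, which understates low genes. Intervals are exact: Clopper-Pearson for ratios (computed without a pseudocount) and Poisson for levels, at 95%. Exon lengths and positions come from GENCODE M39 (all 45 genes matched by symbol), with shared exon bases kept. Of the 45 genes, 27 share exon bases with another annotated gene. The length and GC trend was a local linear fit over 300 neighbouring genes. Ratios were also computed with pseudocounts of 0.1 and 10, 4 scalings, other minimum means and thresholds. The trend was subtracted from the listed genes as an alternative chosen after seeing the data.

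Any member may be named. From the lists, genes past 0.5 with a mean of at least 50 were named, up to 4 a list, and otherwise the most abundant. Hottip, Hotair, Hotairm1, Hoxd3os1, Dot1l, Ash1l, Cbx6, Smc3, Rad21, Stag1, Stag2, Efhd1, Dpp4, Col2a1, Sp7, Acta1 and the genes beside or overlapping a member were named after their values were seen. Values of some genes are not reported here, though counts and sums include them. The members and lists were chosen with earlier results of these data known. The analysis used scipy 1.17.1, scikit-learn 1.9.0, pandas 2.3.3, numpy 2.4.6 and matplotlib 3.10.9 under Python 3.11.15, and the counting and trend steps were tested on simulated data.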

Additional observations from a re-analysis of the deposited data

How the results depend on the processing

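Each value rests on 1 library, and a difference between cultures cannot be told apart from one between stiffness levels. No paired analysis was possible because each level has 1 library, so no library was left out and no count test was run. The median log2 ratios ranged from -0.11 to 0.00 for stiff against soft, from -0.09 to -0.01 for intermediate against soft and from -0.07 to 0.03 for stiff against intermediate, and 80 of 81 ratios of detected genes stayed inside their counting interval, the exception being Hoxd13 with the trend subtracted. Of the 81, 14 changed sign under at least 1 alternative, none of them past the limit of 0.5 with a mean of 50.

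The number of genes past the limit for stiff against soft was 1 and became 0 among genes sharing no exon base (Pitx1 is then left out), 0 at a log2 ratio of 1, 3 at 0.25, 6 with a mean of at least 10 and 15 with no minimum. For intermediate against soft it was 0 and became 2 at 0.25, 1 with a mean of at least 10 and 11 with no minimum. For stiff against intermediate it was 1 and became 0 with a pseudocount of 10, scaling by total reads, upper quartile scaling, the trend subtracted, genes sharing no exon base, or a log2 ratio of 1, and 4 at 0.25, 4 with a mean of at least 10 and 13 with no minimum. Pitx1 lay at 0.51 there, close to the limit of 0.5. Lower minimums add genes with few reads. The share of the Hox level in groups 9 to 13, averaged over libraries, was 86.6% and became 85.3% with the longest transcript as length.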
